A study of Mus musculus with 3 samples.

Results

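The enzymes of glycolysis and of the tricarboxylic acid (TCA) cycle were followed in mouse colon organoids exposed to IFN-γ. The 31 genes were taken by symbol from a list of textbook pathway members, out of 32285 features in the deposited matrices, and all 31 were found. They comprise 13 genes of glycolysis, 7 genes that handle pyruvate and lactate, and 11 genes of the TCA cycle. Each condition was 1 library of single epithelial cells: untreated organoids, organoids treated with IFN-γ for 24 h and organoids treated for 48 h. All 3 were grown in full medium, which holds Wnt, R-spondin, EGF and Noggin, and were sorted with DAPI to remove dead cells. The dose in the study's organoid methods was 50 ng/ml. The mice of the study were 6 to 12 weeks old, and the organoids came from WT animals that had received no treatment. How many animals gave these organoids is not given in the sources used here.

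Glycolysis converts glucose to pyruvate in the cytosol, in a preparatory phase that spends ATP and a payoff phase that makes ATP and NADH. Lactate dehydrogenase reduces pyruvate to lactate, whereas the pyruvate dehydrogenase complex turns it into acetyl-CoA for the TCA cycle in mitochondria, a step that pyruvate dehydrogenase kinases switch off. In the colon, dividing crypt cells are known for their use of glycolysis and colonocytes for oxidation of butyrate through the TCA cycle.

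After removal of barcodes with fewer than 5000 UMIs, fewer than 400 genes or more than 15% mitochondrial UMIs, 1058 cells of the untreated library, 917 of the 24 h library and 2934 of the 48 h library remained, with 47243500 to 71077817 UMIs per library. Levels are given as CPM, the UMIs of a gene over all kept cells of 1 library, scaled to a common total, and because 1 UMI stands for 1 captured 3′ end, they are not scaled by gene length. The libraries differed in depth, with a median of 33550 UMIs per cell in the untreated library, 68784 in the 24 h library and 10772 in the 48 h library, and median mitochondrial shares were 4.83%, 2.12% and 6.14%. No test is possible between single libraries, and all intervals are 95% intervals for counting error only. The epithelial markers summed to between 5518 and 8217 CPM, whereas 8 stromal markers summed to 2.11, 11.3 and 17.8 CPM in the untreated, 24 h and 48 h libraries. Col1a1, which marks fibroblasts, and Ptprc, which marks leukocytes, had no UMI, but other markers of their lists did. Of the 8 stromal markers, 5, 4 and 5 were at 0 in the untreated, 24 h and 48 h libraries, and of 7 immune markers 3, 2 and 3. Libraries shared 1 to 4 cell barcodes. The transcription factor Irf1, which answers to interferon, served as a check of the treatment and stood at 23.5 CPM in untreated cells, 331 CPM at 24 h and 310 CPM at 48 h.

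The promoters of 4 members are shown because of their levels at 48 h. Among the abundant members, Eno1, Ldha and Fh1 lay furthest below untreated cells and Pfkp furthest above. Pfkl, whose promoter is not shown, lay further below untreated cells than Pfkp lay above. The sequences are from RefSeq on GRCm38.p6 and hold the 250 bases before the most upstream transcription start listed for the gene, 5′ to 3′ on its strand. Capitals mark ACGTG on either strand, and merge with CACGTG, the E-box, where that longer motif contains it. ACGTG is a form of the core of the hypoxia response element, and the other form, GCGTG, was neither searched for nor marked.
Eno1: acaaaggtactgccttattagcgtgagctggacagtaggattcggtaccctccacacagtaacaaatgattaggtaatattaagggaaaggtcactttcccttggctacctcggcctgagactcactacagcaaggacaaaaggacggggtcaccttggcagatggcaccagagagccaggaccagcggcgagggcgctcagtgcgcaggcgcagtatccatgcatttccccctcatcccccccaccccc
Ldha: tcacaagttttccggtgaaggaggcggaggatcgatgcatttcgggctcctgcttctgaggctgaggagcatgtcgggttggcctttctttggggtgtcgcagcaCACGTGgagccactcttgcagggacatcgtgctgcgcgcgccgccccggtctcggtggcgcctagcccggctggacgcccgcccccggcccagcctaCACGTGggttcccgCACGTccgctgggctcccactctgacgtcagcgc
Fh1: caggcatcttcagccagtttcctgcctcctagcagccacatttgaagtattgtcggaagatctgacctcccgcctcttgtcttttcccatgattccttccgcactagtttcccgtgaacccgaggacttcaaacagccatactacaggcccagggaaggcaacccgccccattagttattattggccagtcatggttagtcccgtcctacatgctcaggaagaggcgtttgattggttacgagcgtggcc
Pfkp: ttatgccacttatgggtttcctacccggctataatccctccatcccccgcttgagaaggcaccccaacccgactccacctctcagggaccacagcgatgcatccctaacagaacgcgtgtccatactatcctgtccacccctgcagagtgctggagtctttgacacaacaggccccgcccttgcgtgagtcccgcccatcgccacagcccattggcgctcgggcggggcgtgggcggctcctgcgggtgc
The Eno1 window lies at chr4:150236458-150236707 on the plus strand, the Ldha window at chr7:46845554-46845803 on the plus strand, the Fh1 window at chr1:175625636-175625885 on the minus strand and the Pfkp window at chr13:6648772-6649021 on the minus strand. The printed Ldha window held 5 matches to ACGTG, of which 4 fall in 2 copies of the palindrome CACGTG. A window before another Ldha start, at chr7:46846832-46847081, held 0, and the other 3 printed windows held none. The letters GCGTG do occur in those 3 windows and were not counted, so the windows are not shown to lack the core. Over the members with a RefSeq window, ACGTG was found for 11 of 30 genes, against 18.49% of 27025 genes, and in 18 of 46 windows, against 16.6% of 32851. CACGTG was in 5 of 46 windows against 6.02% of all windows. The letters TTCNNNGAA, where N is any base, were also searched for and were in 1 of 46 windows, against 7.02% of all windows. Windows of 1 gene can overlap, and Ogdh alone gave 6 of the 18 and 3 of the 5. A match is a description of letters and not a binding site.

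Counting over the whole list, members' UMIs made up 11631 CPM in untreated cells, 12985 CPM at 24 h and 9827 CPM at 48 h. At 24 h the summed level was 0.16 higher on the log2 scale (0.15 to 0.16), and at 48 h it was lower, with a log2 ratio of -0.24 (-0.25 to -0.24). In such sums over whole libraries, a different makeup of cells and a different amount of RNA per cell cannot be told apart. Sums within cell states are given further on. Colonocyte markers summed to 2285, 1079 and 956 CPM in the 3 libraries and goblet markers to 3012, 1003 and 699 CPM. A fold of 1.5 in either direction was the call used here. At 24 h no member was 1.5-fold higher and 1, Ldhb, was 1.5-fold lower, where 5.84% of 14227 genes with at least 50 counts were higher and 37.2% lower. At 48 h no member was 1.5-fold higher and 5 of the 30 with a ratio were lower, namely Eno1, Fh1, Ldhb, Ldha and Pfkl, where 8.28% of 14202 genes were higher and 22.7% lower. On the scale of total UMIs and beside all these genes, the share of members past 1.5-fold was therefore below the background in both directions at both times. This did not hold for each comparison with abundant genes, under TMM scaling or within cell states, as given below. Of the 27 members that averaged at least 50 CPM over the 3 libraries, a limit set after the values were seen, 4 were 1.5-fold lower at 48 h, beside 10.3% of the 3632 genes at that level. At 24 h none of the 27 was, beside 18.8%.

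Median ratios placed the pathways apart at 24 h and closer at 48 h. The 13 glycolysis genes had a median of 0.03 on the log2 scale at 24 h and of -0.34 at 48 h. For the 11 TCA genes it was -0.18 and -0.43, and for the 6 measured genes of lactate and pyruvate dehydrogenase -0.20 and -0.39. The median of all genes was -0.38 at 24 h and -0.14 at 48 h, and that of the 3632 genes averaging at least 50 CPM was -0.09 and -0.04. Among the 30 members with a ratio, 12 were higher and 18 lower at 24 h (26.5% and 73.5% of all genes), and 4 were higher and 26 lower at 48 h (38.5% and 61.5% of all genes). TMM scaling, which centres on the bulk of genes, adds 0.45 at 24 h and 0.19 at 48 h to every log2 ratio, so that 26 of 30 members stand higher at 24 h (54.1% of all genes), 7 of them past 1.5-fold (19.6%), and 9 of 30 at 48 h (53.6%). At 48 h, 3 members are then 1.5-fold lower, Eno1, Ldhb and Fh1, beside 16.8% of all genes. Signs of small ratios at 24 h thus depend on the scaling. Above the median of all genes lay 24 of 30 members at 24 h and 9 of 30 at 48 h, but above the median of the 3632 more abundant genes only 12 and 6 of 27.

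**Figure D1:**
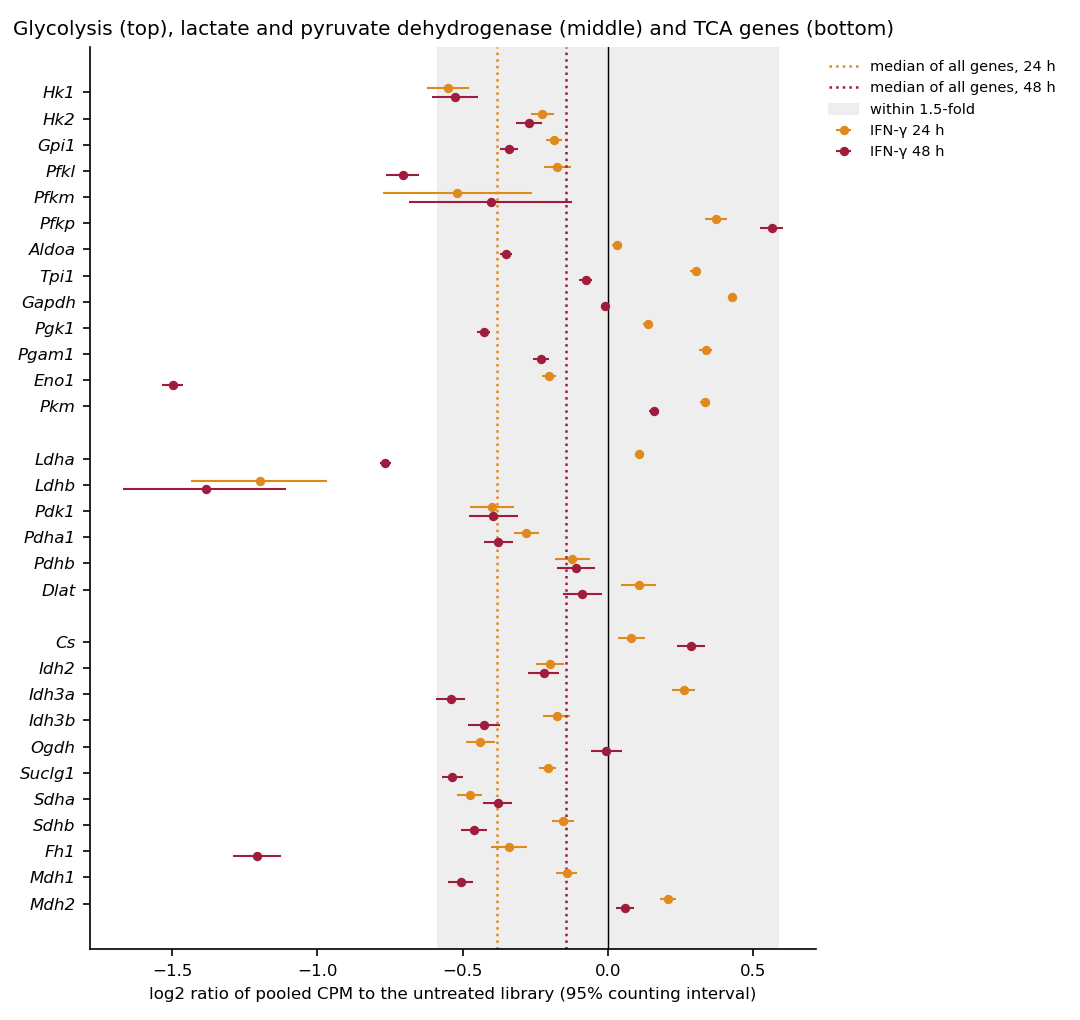
Log2 ratio of pooled CPM to the untreated library for the 30 members with a ratio at 24 h and 48 h of IFN-γ, as points with 95% counting intervals. Glycolysis genes are on top, lactate and pyruvate dehydrogenase genes in the middle and TCA genes at the bottom, and at 48 h Eno1 (-1.50), Ldhb (-1.38) and Fh1 (-1.21) lie furthest to the left and Pfkp (0.56) furthest to the right.

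Hexokinases, which trap glucose in the cell as glucose 6-phosphate, were lower in both treated libraries on the scale of total UMIs. Hk2, the inducible isozyme, was at 192 CPM in untreated cells, 164 CPM at 24 h and 159 CPM at 48 h, and TMM scaling turns its log2 ratio at 24 h from -0.23 to 0.22. Hk1, the isozyme of most tissues, was at 63.5, 43.3 and 44.1 CPM, with log2 ratios of -0.55 (-0.62 to -0.48) and -0.53 (-0.61 to -0.45) that stayed below 0 under TMM. Hk2 made up 75.1% of the UMIs of this pair without IFN-γ, 79.1% after 24 h and 78.3% after 48 h. Gpi1, which isomerises glucose 6-phosphate to fructose 6-phosphate, stood at 391, 344 and 309 CPM, with a log2 ratio at 24 h of -0.19 that TMM scaling turns to 0.26.

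Phosphofructokinase, which commits fructose 6-phosphate to glycolysis, was a step at which isozymes diverged. Pfkp (chr13:6579768-6648777), the platelet-type subunit, was at 178 CPM in untreated cells, 230 CPM at 24 h and 263 CPM at 48 h. The log2 ratios of Pfkp were 0.37 (0.34 to 0.41) and 0.56 (0.52 to 0.60), below the 1.5-fold line at 48 h and past it under TMM (0.75). Pfkl (chr10:77986947-78010083), the liver-type subunit, was at 136, 120 and 83.3 CPM, and its log2 ratio at 48 h was -0.71 (-0.76 to -0.65). The muscle-type subunit gene Pfkm was rare, with 5.12, 3.57 and 3.87 CPM.

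As a share of all phosphofructokinase UMIs, which no scaling between libraries affects, Pfkp made up 55.7% (95% Clopper-Pearson interval 54.96 to 56.52) without IFN-γ, 65.0% (64.4 to 65.6) after 24 h and 75.1% (74.4 to 75.7) after 48 h. Pfkl went from 42.7% to 34.0% and 23.8%, and the intervals of the 3 libraries did not overlap. Pfkm stayed between 1.01% and 1.61%. On the scale of total UMIs, the summed level of the 5 hexokinase and phosphofructokinase genes differed little, with 574 CPM in untreated cells, 561 CPM at 24 h and 553 CPM at 48 h. The log2 ratios of these sums were -0.03 and -0.05, and TMM scaling adds 0.45 at 24 h and 0.19 at 48 h to them.

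**Figure D2:**
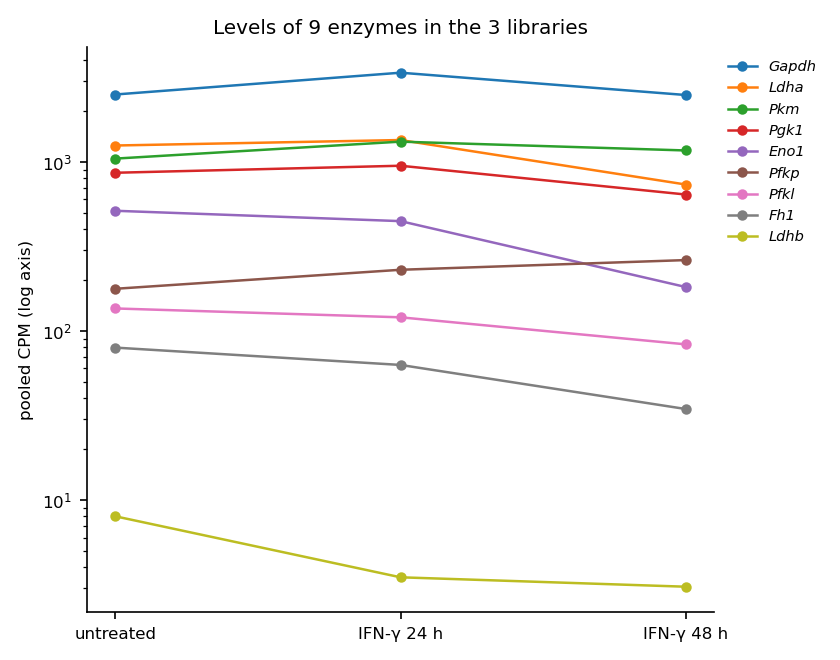
Pooled CPM of 9 members on a log axis in the untreated, 24 h and 48 h libraries, 1 point per library. Eno1 stands at 514 CPM in untreated cells and 182 CPM at 48 h and Fh1 at 79.7 and 34.5 CPM, while Pfkp stands at 178 and 263 CPM.

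From triose phosphate isomerase on, the steps were higher at 24 h than in untreated cells, except for enolase. Aldoa, the aldolase that splits fructose 1,6-bisphosphate, was at 923, 944 and 724 CPM, and its log2 ratio of 0.03 at 24 h turns to -0.034 with at most 10% mitochondrial UMIs and to -0.017 without the 10% of cells with the most UMIs. Tpi1, which interconverts the triose phosphates, was at 719, 887 and 682 CPM, and TMM scaling turns its log2 ratio at 48 h from -0.08 to 0.11. Gapdh, which makes the NADH of glycolysis and was the most abundant member, was at 2504 CPM in untreated cells, 3371 CPM at 24 h and 2487 CPM at 48 h. Its log2 ratio was 0.43 (0.42 to 0.44) at 24 h and -0.01 (-0.02 to 0.00) at 48 h, the latter 0.18 under TMM.

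Phosphoglycerate kinase Pgk1, which makes the first ATP of the payoff phase, was at 863, 949 and 641 CPM. The mutase gene Pgam1 was at 505, 638 and 430 CPM. Both were thus highest at 24 h and lowest at 48 h. Pyruvate kinase Pkm, the last enzyme of the pathway, was at 1046, 1318 and 1169 CPM, and in the pooled libraries, on the scale of total UMIs, was the only payoff gene above the untreated level at both times, with log2 ratios of 0.33 (0.32 to 0.35) and 0.16 (0.14 to 0.18). Over the 5 payoff genes the median log2 ratio was 0.33 at 24 h and -0.23 at 48 h, compared with -0.18 and -0.35 over the 8 genes of the preparatory phase.

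Eno1 (chr4:150236721-150248879), which encodes enolase 1 and makes phosphoenolpyruvate, stood apart from its neighbours in the pathway. It was at 514 CPM in untreated cells, 446 CPM at 24 h and 182 CPM at 48 h. The log2 ratio was -0.20 (-0.23 to -0.18) at 24 h, which TMM scaling turns to 0.24, and -1.50 (-1.53 to -1.46) at 48 h, the lowest ratio of all 30 members. Eno1 lay between Pgam1 and Pkm in the pathway, whose ratios at 48 h were -0.23 and 0.16. A near-identical copy, Eno1b, took 1.44% of the UMIs of the pair without IFN-γ, 3.15% after 24 h and 3.85% after 48 h. Its log2 ratios were 0.95 at 24 h and -0.05 at 48 h. Reads of the pair may have been split between the copies or dropped. Dropped reads are not counted in these shares, so the shares do not bound the uncertainty in the level of Eno1.

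At 48 h, Ldha (chr7:46841475-46855627), the lactate dehydrogenase subunit that favours lactate, was the second most abundant member in untreated cells and among those furthest below them. It was at 1250 CPM in untreated cells, 1347 CPM at 24 h and 735 CPM at 48 h. Ldha had log2 ratios of 0.11 (0.09 to 0.12) and -0.77 (-0.79 to -0.75), and under TMM the latter was -0.58, just inside 1.5-fold. Ldhb, the subunit of the heart-type enzyme, was at 8.01, 3.49 and 3.07 CPM, with log2 ratios of -1.20 (-1.43 to -0.97) and -1.38 (-1.67 to -1.11) from 399, 248 and 145 UMIs. Ldha made up 99.4% of lactate dehydrogenase UMIs without IFN-γ, 99.7% after 24 h and 99.6% after 48 h.

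The gate from pyruvate to the TCA cycle had 4 genes with a ratio. Pdha1, the catalytic subunit of pyruvate dehydrogenase, was at 155, 127 and 119 CPM, and its partner subunit Pdhb at 81.2, 74.6 and 75.3 CPM. Dlat, which carries the acetyl group, was at 75.4, 81.2 and 71.0 CPM. Pdk1, the kinase that inhibits the complex and a known target of HIF-1, was at 55.3, 41.9 and 42.1 CPM. None of the 4 was past 1.5-fold at either time, and the median of their log2 ratios was -0.20 at 24 h and -0.24 at 48 h. Under TMM scaling all 4 lie above untreated cells at 24 h, by 0.05 for Pdk1 to 0.55 for Dlat, as do Pdhb (0.08) and Dlat (0.10) at 48 h. Pdk4, a kinase induced in fasting, was at the limit of detection, with 1 UMI in each of the untreated and 24 h libraries and 0 in the 48 h library, so no ratio was taken.

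In the TCA cycle, 8 of 11 genes were lower at 24 h and 9 of 11 at 48 h on the scale of total UMIs, beside 73.5% and 61.5% of all genes. Under TMM scaling the median over the 11 genes is 0.27 at 24 h and -0.24 at 48 h, so only the direction at 48 h held under both. Cs, citrate synthase, which brings acetyl-CoA into the cycle, was at 124, 131 and 151 CPM, its log2 ratio being 0.29 (0.24 to 0.34) after 48 h. Mdh2, the mitochondrial malate dehydrogenase that closes the cycle, was at 326, 377 and 339 CPM and on the scale of total UMIs was the other TCA gene above untreated cells at both times.

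Isocitrate dehydrogenase subunits differed in their course. Idh3a, the catalytic subunit of the NAD-dependent enzyme, was at 166 CPM in untreated cells, 200 CPM at 24 h and 114 CPM at 48 h. Its partner Idh3b was at 128, 113 and 94.997 CPM, and the NADP-dependent mitochondrial Idh2 at 128, 111 and 110 CPM. Ogdh, part of the 2-oxoglutarate dehydrogenase complex, was lower at 24 h only, with 122, 89.8 and 121 CPM, and TMM scaling brings that lower value to a log2 ratio of 0.01.

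Suclg1, a subunit of succinyl-CoA ligase, was at 322, 279 and 222 CPM. Sdha and Sdhb, the flavoprotein and iron-sulphur subunits of succinate dehydrogenase, were at 163, 117 and 125 CPM and at 200, 179 and 145 CPM. Fh1 (chr1:175600374-175625635), which encodes fumarase and hydrates fumarate to malate, was the TCA gene furthest below untreated cells at 48 h. It was at 79.7 CPM in untreated cells, 62.9 CPM at 24 h and 34.5 CPM at 48 h, from 3970, 4474 and 1631 UMIs. The log2 ratio of Fh1 was -0.34 (-0.40 to -0.28) at 24 h, which TMM scaling turns to 0.11, and -1.21 (-1.29 to -1.12) at 48 h. Mdh1, the cytosolic malate dehydrogenase of the malate-aspartate shuttle, was at 210, 191 and 148 CPM.

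Set against each other, the treated libraries differed mainly downward at 48 h. Of 30 members, 22 were lower at 48 h than at 24 h and 8 higher, where 33.8% of 13768 genes were lower and 66.2% higher. Past 1.5-fold, 4 were lower and none higher, namely Eno1 (log2 ratio -1.30), Ldha (-0.87), Fh1 (-0.87) and Idh3a (-0.80), where 4.6% of all genes were 1.5-fold lower and 25.5% higher. Under TMM scaling 12 of 30 members were 1.5-fold lower, beside 12.8% of all genes. Among genes averaging at least 50 CPM the median log2 ratio in this comparison was -0.01, and of the 27 members among them -0.25. The same 2 libraries lie furthest apart in median depth and mitochondrial share, and Malat1, a nuclear RNA, was at 3035 CPM at 24 h and 4909 CPM at 48 h, after 9301 CPM in untreated cells. The part of those differences in the ratios was not tested.

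Clusters were built without the 31 members and the related gene lists, so that the enzymes did not shape them. With at least 20 cells in each library, 5 clusters could be compared: G2/M-like cells (Nusap1, Ube2c, Plk1), S phase-like cells (Ung, Uhrf1, Cdc6), colonocyte-like cells (Krt20, Slc26a3, Car1), goblet-like cells (Spink4, Muc2, Tff3) and an unnamed cluster led by Lrrc4 and AY036118. The unnamed cluster was the shallowest of the 5, with a median of 15414 UMIs per cell in untreated organoids and 7365 at 48 h, and it held 33.5%, 20.1% and 47.5% of the cells of the 3 libraries. It carried 9 of 12 stem cell markers above the other cells, but none among its leading genes. All clusters came from the same 3 libraries and do not replicate the treatment.

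Colonocyte-like cells had the highest level of glycolysis genes in untreated organoids, with 10060 CPM summed over the 13 genes, followed by G2/M-like cells with 8794 CPM, S phase-like cells with 8064 CPM and goblet-like cells with 7075 CPM. The unnamed cluster had 4078 CPM. TCA genes spanned a narrower range, from 1558 CPM in the unnamed cluster to 2228 CPM in colonocyte-like cells. In untreated colonocyte-like cells, glycolysis genes made up a median of 0.915% of the UMIs of a cell, and the 10th and 90th percentiles over cells were 0.386% and 1.65%.

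**Figure D3:**
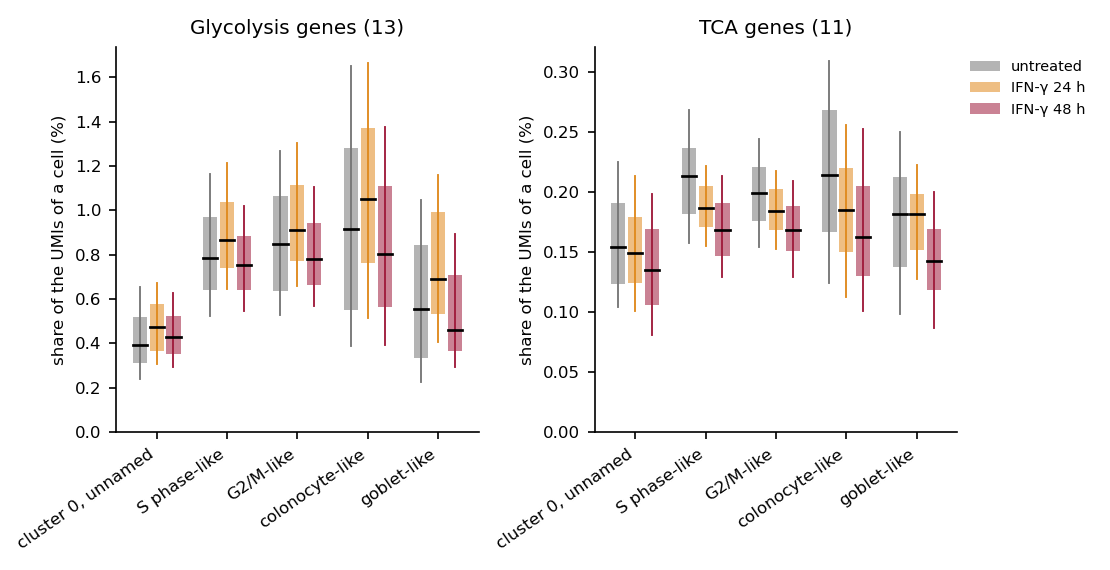
Share of each cell's UMIs that came from the 13 glycolysis genes and the 11 TCA genes, by cell state and library, with black bars at the median over cells, boxes between the quartiles and lines from the 10th to the 90th percentile. Glycolysis shares are lowest in the unnamed cluster (median 0.391% in untreated cells) and highest in colonocyte-like cells (0.915%), and TCA shares vary less between states.

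Within states the median glycolysis ratio lay above the median TCA ratio in 5 of 5 states at 24 h and in 4 of 5 at 48 h, goblet-like cells being the exception with -0.33 and -0.32. At 24 h the glycolysis median ran from -0.03 in G2/M-like cells to 0.18 in the unnamed cluster, and the TCA median from -0.22 in colonocyte-like cells to -0.08 in the unnamed cluster. At 48 h the ranges were -0.33 to -0.02 for glycolysis and -0.50 to -0.21 for the TCA cycle. Summed over all members, the log2 ratio at 48 h was 0.02 in the unnamed cluster and from -0.21 to -0.17 in the other 4 states. In the pooled libraries it was -0.24, below each of the 5 states. Members 1.5-fold lower at 48 h numbered 7 of 30 in colonocyte-like cells (18.0% of genes in that state), 8 of 29 in goblet-like cells (17.5%) and 6 of 30 in the unnamed cluster (26.6%). In G2/M-like and S phase-like cells they numbered 5 of 30 each (17.6% and 14.3%).

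The members furthest from untreated cells in the whole libraries held their direction in each state at 48 h. Eno1 had log2 ratios between -1.53 and -1.03, past 1.5-fold in 5 of 5 states. In colonocyte-like cells it was at 585 CPM in untreated organoids, 494 CPM at 24 h and 210 CPM at 48 h, and in the unnamed cluster at 241, 241 and 118 CPM. Fh1 lay between -1.33 and -1.05 in the 5 states, and in G2/M-like cells it was at 83.8, 62.9 and 33.2 CPM. Ldha was lower in 5 of 5 states, with log2 ratios from -0.75 in goblet-like cells to -0.29 in the unnamed cluster.

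Pfkp was higher in 5 of 5 states at both times, by 0.29 to 0.60 on the log2 scale at 24 h and by 0.49 to 0.79 at 48 h. Pfkl was lower in all 5 at 48 h, from -0.74 to -0.43. The share of Pfkp among phosphofructokinase UMIs at 48 h was between 71.6% in goblet-like cells and 77.9% in colonocyte-like cells, compared with 51.1% in S phase-like and 60.3% in unnamed-cluster cells as the extremes of untreated organoids. The Gapdh ratio was above untreated cells in 5 of 5 states at both times, unlike in the pooled libraries at 48 h (-0.01). In colonocyte-like cells at 48 h it was 0.01 (-0.02 to 0.03), an interval that includes no difference. At 48 h Gapdh was within 0.10 of untreated cells on the log2 scale in 4 states. In the unnamed cluster it was at 795 CPM in untreated organoids and 1202 CPM after 48 h, which is 0.60 (0.55 to 0.64) on the log2 scale.

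**Figure D4:**
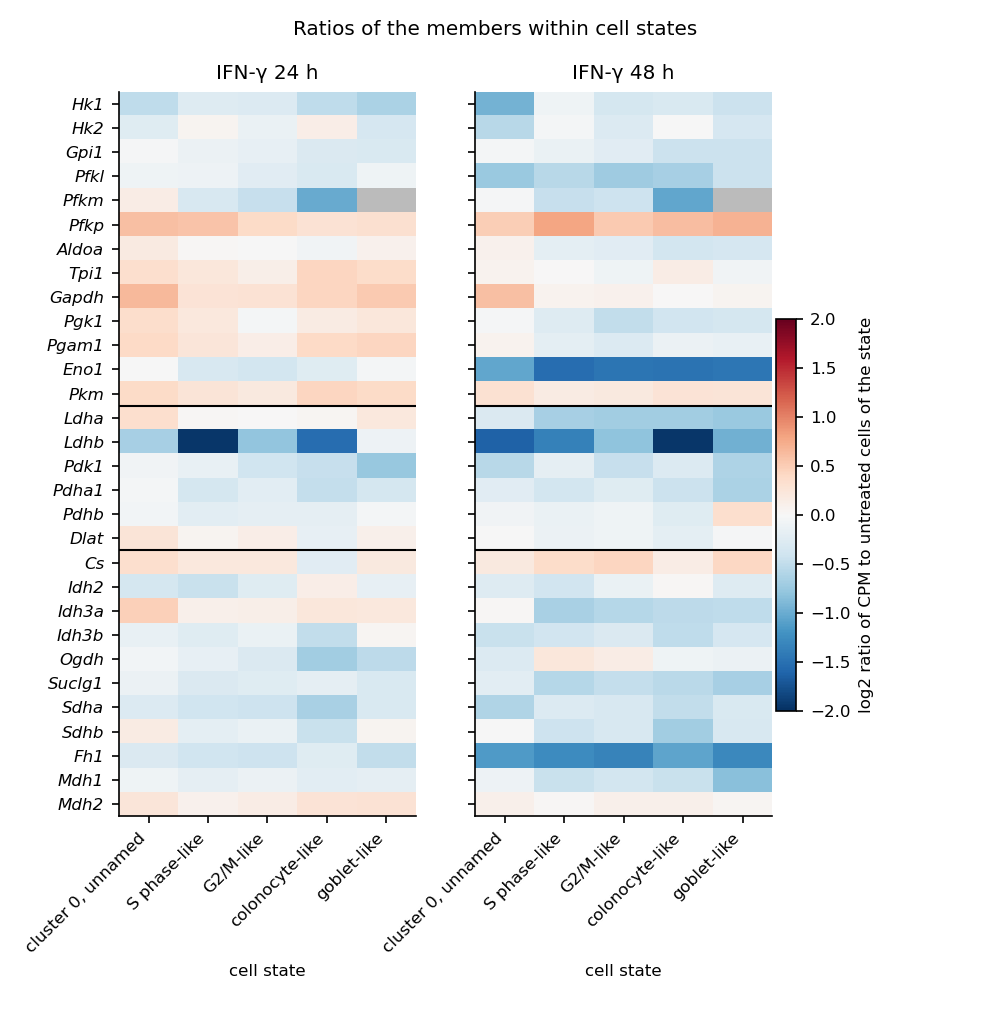
Log2 ratio of pooled CPM to untreated cells of the same state, for the members (rows) in 5 cell states (columns) at 24 h and 48 h, on a colour scale from -2 to 2, with grey where counts were under 50. Rows for Eno1 and Fh1 are below 0 in each of the 5 states at 48 h, and the row for Pfkp is above 0 in each at both times.

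Other genes of carbon metabolism were listed by pathway alongside the members. Among 25 further genes of glycolysis and glucose handling, 20 had a ratio at 24 h, of which 8 were 1.5-fold lower and 1 higher, with the same counts among 19 at 48 h. The median log2 ratio of this list was -0.47 at 24 h and -0.55 at 48 h. Both lay below the medians of the other pyruvate and TCA genes (-0.29 and -0.39), the reverse of the order among the members. Of all genes, 37.2% and 22.7% were 1.5-fold lower at these times, and 5.84% and 8.28% higher. The higher gene was Hkdc1, a hexokinase-like gene at 0.201, 0.703 and 1.16 CPM, which was named after its values were seen. Eno3, the muscle enolase, was at 34.98 CPM in untreated cells, 9.75 CPM at 24 h and 7.39 CPM at 48 h. Galm, which interconverts the anomers of galactose and glucose, was at 27.2, 8.92 and 7.37 CPM, and Pklr, the pyruvate kinase of liver and red cells, at 18.3, 10.2 and 9.50 CPM. The glucose transporter Slc2a1 was at 60.8, 57.8 and 51.4 CPM, inside 1.5-fold at both times.

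Outside the list, the 24 other genes of pyruvate and the TCA cycle had medians of -0.29 (24 h) and -0.39 (48 h) on the log2 scale, with 6 and 9 genes 1.5-fold lower, again beside 37.2% and 22.7% of all genes. Idh1, the cytosolic isocitrate dehydrogenase, was at 203 CPM in untreated cells, 87.2 CPM at 24 h and 80.9 CPM at 48 h, unlike its mitochondrial relative Idh2. Suclg2, a subunit of the GTP-forming succinyl-CoA ligase, was at 202, 118 and 125 CPM. The genes 1.5-fold higher were Acod1 at both times and Slc25a1, the mitochondrial citrate carrier, at 48 h, with 105, 129 and 174 CPM, which was named after its values were seen. Of all genes, 5.84% were 1.5-fold higher at 24 h and 8.28% at 48 h.

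Acod1 encodes the enzyme that draws cis-aconitate out of the TCA cycle to make itaconate, and is best known from activated macrophages. The untreated library held 1 UMI of it, the 24 h library 395 and the 48 h library 1472, which is 0.0201, 5.56 and 31.2 CPM. On the log2 scale the ratio at 48 h was 10.6, with a counting interval of 8.12 to 15.9, wide because of the single untreated UMI. After each cell was thinned to 5000 UMIs, 0 of 1058 untreated cells (0% to 0.348%, exact interval), 3.71% of cells at 24 h (2.58% to 5.14%) and 10.8% at 48 h (9.67% to 11.9%) held an Acod1 UMI. Without thinning the shares were 0.0945%, 14.9% and 22.6%.

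At 48 h the Acod1 level in the 5 states ran from 23.7 CPM in S phase-like cells to 48.9 CPM in colonocyte-like cells, and was 48.8 CPM in goblet-like cells, where 1 cell held 32.0% of the UMIs. The 7 immune markers summed to 2.45 CPM in untreated cells, 3.11 CPM at 24 h and 4.30 CPM at 48 h, and Ptprc and Tyrobp were at 0 in all 3 libraries. Barcodes with fewer than 2000 UMIs, read here as mostly free RNA, had Acod1 at 4.17 CPM in the 24 h library, where cells had 5.56 CPM, and at 13.4 CPM in the 48 h library, and the part of free RNA in the level of the cells was not tested.

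Pck2, the mitochondrial enzyme that makes phosphoenolpyruvate from oxaloacetate, was at 35.2 CPM in untreated cells, 66.0 CPM at 24 h and 118 CPM at 48 h. Log2 ratios of Pck2 were 0.91 (0.83 to 0.99) and 1.74 (1.67 to 1.82), and of the 4 gluconeogenesis genes with a ratio it was the only one 1.5-fold higher at either time. Of all genes, 5.84% and 8.28% were 1.5-fold higher at these times, and 37.2% and 22.7% lower. In the gluconeogenesis list Pck1, the cytosolic form, was 1.5-fold lower at both times, from 2.25 CPM in untreated cells to 0.0422 and 0.106 CPM, and Fbp2, a fructose bisphosphatase, at 48 h, with 164, 128 and 87.2 CPM. Both were named after their values were seen.

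The pentose phosphate pathway branches from glucose 6-phosphate and supplies NADPH and ribose. Its 7 genes had a median log2 ratio of -0.05 at both times. G6pdx and Pgd, the dehydrogenases that make the NADPH, were 1.5-fold higher at 48 h, beside 8.28% of all genes, and were also named after their values were seen. G6pdx was at 34.8, 49.0 and 64.6 CPM and Pgd at 150, 197 and 258 CPM, so that both were lowest in untreated cells and highest at 48 h. Tkt and Taldo1, of the non-oxidative branch, were at 385, 371 and 372 CPM and at 338, 303 and 301 CPM.

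Several glycolysis genes, Eno1 and Ldha among them, are textbook targets of the hypoxia-inducible factor HIF-1, and 18 hypoxia genes outside glycolysis were counted for that reason. None was 1.5-fold higher at either time, beside 5.84% of all genes at 24 h and 8.28% at 48 h. At 24 h 8 of 18 were 1.5-fold lower and at 48 h 11 of 18, beside 37.2% and 22.7% of all genes. The median log2 ratios were -0.47 and -0.79. TMM scaling adds 0.45 and 0.19 to these ratios, so that the median at 24 h comes to lie near no difference. Car9, a carbonic anhydrase at the cell surface, was at 65.0 CPM in untreated cells, 29.3 CPM at 24 h and 14.8 CPM at 48 h. Ankrd37 was at 43.7, 23.4 and 9.65 CPM and Ndrg1 at 65.5, 42.6 and 26.0 CPM.

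P4ha1, a collagen prolyl hydroxylase subunit, was at 27.7, 17.8 and 15.9 CPM. Hif1a itself, which is regulated chiefly at the protein level, was at 94.7, 91.1 and 96.9 CPM. The median of the hypoxia genes with a ratio was below 0 within states too, at 48 h from a log2 ratio of -0.90 in colonocyte-like cells to -0.52 in S phase-like cells, where the medians of all genes in those states were -0.01 and -0.05. In 4 of the 5 states 1 to 3 of these genes stood above untreated cells. Among members that are HIF-1 targets, Ldha and Pgk1 were lower at 48 h and higher at 24 h, whereas Eno1 and Pdk1 were lower at both times, with signs at 24 h that TMM scaling turns (0.24 and 0.05). They are not the only HIF-1 targets on the list. Of the 13 glycolysis genes, 11 were lower at 48 h, and Pkm (0.16) and Pfkp (0.56) were higher.

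**Figure D5:**
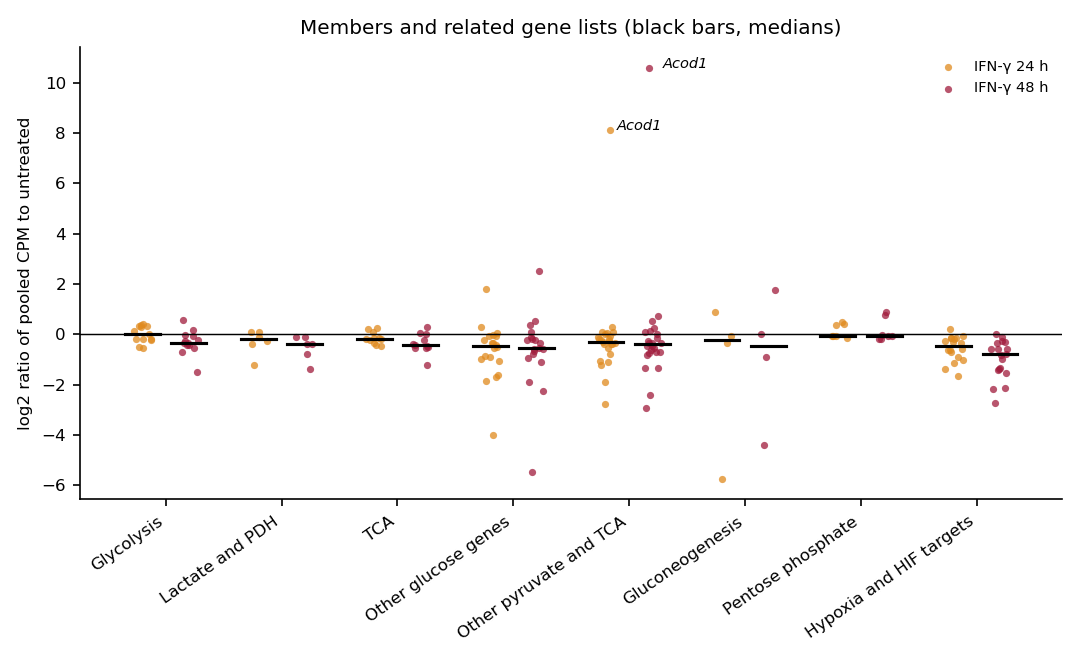
Log2 ratio of pooled CPM to untreated cells for the members and for the related gene lists at 24 h and 48 h, 1 point per gene with black bars at the medians. The hypoxia list has the lowest median at 48 h (-0.79), the pentose phosphate list stays near 0 (-0.05 at both times), and the glycolysis members go from 0.03 to -0.34.

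In barcodes with fewer than 2000 UMIs the glycolysis median also lay above the TCA median. The median log2 ratio of the glycolysis genes there was -0.13 at 24 h and -0.32 at 48 h, and that of the TCA genes was -0.34 and -0.50. Eno1 was at 443 CPM there in the untreated library, 324 CPM at 24 h and 144 CPM at 48 h. Free RNA was not removed from the cells, and its part in their ratios was not tested.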

How the data were processed

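The libraries were made with 10x Genomics 3′ v3 chemistry. Per the submitters' processing notes, reads were mapped to mm10 with Cell Ranger 6.0.1, and the authors deposited raw UMI counts per gene and barcode, without normalization and with background barcodes. The annotation release is not given in the sources used here. Following the study's methods, barcodes below 5000 UMIs, below 400 genes or above 15% mitochondrial UMIs were removed. No doublet caller was run and free RNA was not removed.

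Counts were summed per library, or per library and cell state, and scaled to CPM. Both feature rows named Aldoa were summed. Ratios were taken for genes whose counts in the 2 libraries compared reached 50 and have exact conditional binomial intervals, shares exact Clopper-Pearson intervals. Both treated libraries were compared with the same untreated library, so the comparisons are not independent. With 1 library per condition no test was made, and a fold of 1.5 was used for counts. The ratio code was tested on simulated data.

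Cells were integrated by CCA over 30 dimensions in Seurat 5.3.0 (R 4.3.3), at a resolution of 0.5 with 20 principal components from 2000 variable genes, leaving the members and the related lists out of the variable genes. A cluster was named where at least 3 markers of its best list were detected above other cells and no other list had more of the leading genes. A cluster much shallower than its library also needed a marker of that list among its leading genes. Cluster 0 was shallow in this sense, had no such marker and stayed unnamed. Cluster 5, enteroendocrine-like, and cluster 6, unnamed, had too few cells in a library to be compared. TMM factors came from edgeR 4.0.16, as an alternative only. Other steps used numpy 2.4.6, scipy 1.17.1 and pandas 2.3.3. Gene positions are from GENCODE vM21 on GRCm38, and RefSeq promoters matched 30 of 31 members.

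All 31 members are described. From the related lists, the text names genes that average at least 10 CPM and are past 1.5-fold in the same direction at both times, with Acod1, Slc2a1 and Hif1a whatever their values, and others only where said. Irf1 was a check of the treatment, and the result of 1 further check gene is not reported here. The members, lists, rules and alternatives were chosen with earlier results of these data known.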

Additional observations from a re-analysis of the deposited data

How the results depend on the processing

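No paired analysis was possible because each group holds 1 library, and for the same reason no library could be left out. The scaling mattered most. Under TMM factors the median log2 ratio of the glycolysis genes was 0.48 at 24 h and -0.15 at 48 h, that of the lactate and pyruvate dehydrogenase genes 0.25 and -0.20, and that of the TCA genes 0.27 and -0.24, so the last 2 groups changed sign at 24 h. Members 1.5-fold higher numbered 7 at 24 h and 1 at 48 h under TMM, and 3 were 1.5-fold lower at 48 h. The glycolysis median at 24 h lay near 0 and was 0.080 as a mean over cells, -0.034 with at most 10% mitochondrial UMIs and -0.017 without the 10% of cells with the most UMIs. At 48 h it was -0.37 with a minimum of 2000 UMIs, -0.25 with a minimum of 10000 UMIs, -0.43 without the cells with the most UMIs and -0.26 with states weighted as in untreated cells. Without the cells with the most UMIs, the TCA median at 48 h was -0.48 and 2 members were 1.5-fold lower at 24 h. At a resolution of 1, the glycolysis median lay above the TCA median in 12 of 12 states at both times, and at 0.3 in 4 and 3 of 4. The cause of these shifts was not tested. Leaving out the count minimum could not change these medians and counts. Pdk4 stayed out because more than 3 counts in a library were still required, and all other members reach the minimum. Depth limits Pdk4, Pfkm and Ldhb most.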
